A study of Mus musculus with 4 samples.

Results

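The miR-99/100 and miR-125 families were followed in small RNA libraries of cultured mouse cortical neurons, as 10 mature arms chosen by name: both arms of miR-99a, miR-99b and miR-125a, the 5p arm of miR-100, and miR-125b-5p with its 3p arms miR-125b-1-3p and miR-125b-2-3p. They were 10 of the 1966 mature mouse miRNA listed in each count table, and the rule for membership was the name of the arm. The neurons were dissected from the cortex of embryos at stage E16.5 according to the sample labels (E16 in the study's methods) and kept without treatment for 5 days in vitro in a serum-free medium. TgAD neurons came from APP/PS1 embryos of a B6C3 strain background, which carry a chimeric mouse/human APP gene with the Swedish mutations (APPswe) and a human presenilin 1 gene lacking exon 9 (PSEN1dE9). Sequences of the mouse prion gene promoter drive both transgenes, so their expression is largely that of brain and spinal cord neurons. WT neurons came from embryos that carried neither transgene by genotyping, and each embryo was cultured on its own, with 2 libraries per genotype.

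Each miRNA hairpin can give a mature RNA from its 5′ side (5p) and from its 3′ side (3p), and the arm that is loaded into an Argonaute protein guides it to messenger RNA that pairs with the seed, bases 2 to 8 of the miRNA. miR-125 is the vertebrate relative of lin-4, the developmental timing miRNA of nematodes, and miR-99/100 is related in sequence to miR-10. In mammals the hairpins of both families lie in clusters with a let-7 hairpin between them, and these families are known for high levels in brain, where miR-125b has been studied at dendritic spines, and for the control of the mTOR pathway by miR-99/100.

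The 5p arms are shown first because they hold the 3 members that passed the test between genotypes. Capitals mark the seed, and the sequences are those of RefSeq for GRCm38.p6, in which all 10 members were matched by name.

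mmu-miR-99a-5p: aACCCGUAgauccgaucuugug
mmu-miR-100-5p: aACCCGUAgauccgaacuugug
mmu-miR-99b-5p: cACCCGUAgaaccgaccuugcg
mmu-miR-125a-5p: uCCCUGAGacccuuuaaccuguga
mmu-miR-125b-5p: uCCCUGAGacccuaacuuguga

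The first 3 of these share the seed ACCCGUA, and no other mouse miRNA in the RefSeq table has it. miR-99a-5p and miR-100-5p differ by the single substitution U16A, counted from 1 at the 5′ end with the base of miR-99a-5p first, so their reads could be told apart where they covered that base. miR-99a-5p and miR-99b-5p are identical at 18 of 22 positions. The seed CCCUGAG is shared by miR-125a-5p, miR-125b-5p and 3 miRNA outside the families, of which miR-351-5p is a relative considered again after the members. The 2 miR-125 5p arms are identical at 15 of their first 22 positions, and all 7 differences lie outside the seed.

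The 3p arms are shown because their seeds differ from those of the 5p arms and, within miR-125, from each other.

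mmu-miR-99a-3p: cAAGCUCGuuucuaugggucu
mmu-miR-99b-3p: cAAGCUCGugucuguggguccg
mmu-miR-125a-3p: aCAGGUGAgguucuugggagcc
mmu-miR-125b-1-3p: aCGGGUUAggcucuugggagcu
mmu-miR-125b-2-3p: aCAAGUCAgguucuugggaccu

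miR-99a-3p and miR-99b-3p share a seed that no other listed mouse miRNA has, whereas each of the 3 miR-125 3p arms has a seed of its own. miR-125b-1-3p and miR-125b-2-3p are identical at 17 of 22 positions and so report on 1 hairpin each, while the sequence of miR-125b-5p is the same from both hairpins and its reads cannot be divided between them.

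The hairpins lie in 3 clusters, all on the plus strand of GRCm38 with positions from GENCODE M21. On chromosome 16, Mir99a (77598936 to 77599000), Mirlet7c-1 (77599657 to 77599750) and Mir125b-2 (77646273 to 77646343) span 47408 bp. They are intronic in all 4 transcripts of the non-coding host gene Mir99ahg that span them. On chromosome 17, Mir99b (17830188 to 17830257), Mirlet7e (17830352 to 17830444) and Mir125a (17830812 to 17830879) span 692 bp within the protein-coding gene Spaca6. Mir99b and Mirlet7e are intronic in the 2 transcripts of Spaca6 that span them, and Mir125a is intronic in 2 and exonic in 1. On chromosome 9, Mir100 (41531425 to 41531504), Mirlet7a-2 (41536716 to 41536811) and Mir125b-1 (41581926 to 41582002) span 50578 bp in introns of the non-coding gene 3110039I08Rik. miR-125b-5p is thus encoded on chromosome 9 (41581940 to 41581961) and on chromosome 16 (77646279 to 77646300).

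The libraries held between 2070204 and 4811010 miRNA reads, 2070204 and 2752599 for WT and 2758525 and 4811010 for TgAD. Of the neuronal markers, miR-128-3p was abundant (43009 to 240174 reads per library). miR-124-3p had 1 to 7 reads and miR-9-5p had none in any library, so the neuronal label rests on only part of its markers in these tables. miR-9-5p has 3 loci, and miRNA with more than 1 locus were more often without counted reads, although miR-128-3p has 2 loci. Whether the low counts of these markers come from the cells or from the counting was not tested. The 7 neuronal markers together stood at 26068 and 39922 CPM in WT and at 89849 and 64558 in TgAD. Of the 5 tested, 2 were called higher and 1 lower in TgAD. Most of the sum was miR-128-3p, with 43009 and 96201 reads in WT and 230643 and 240174 in TgAD. miR-138-5p went the other way, with 3885 and 3566 reads in WT and 3330 and 2616 in TgAD. The sum therefore does not describe the neuronal markers as a group. The 4 oligodendrocyte markers were at 0 in all libraries, as was the endothelial pair miR-126a-3p and miR-126a-5p. Blood and microglia markers (7 miRNA, 3 tested, 1 called lower, miR-142a-3p at 0) summed to 2221 and 2060 CPM in WT and 1791 and 1707 in TgAD. The 5 vascular markers, of which 2 were tested and none was called, summed to 901 and 718 CPM in WT and 829 and 758 in TgAD. The astroglial markers miR-21a-5p and miR-21a-3p, of which 1 was tested and none called, summed to 17138 and 22582 CPM in WT and to 15121 and 13722 in TgAD. The part of these differences in the results on the members was not tested, and in these bulk samples a change in the number of cells of a type and a change in the RNA per cell cannot be told apart.

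The labels of the libraries were in conflict with a second deposited table, of normalized values for 674 miRNA. Its values were whole multiples of 1 read in 100% of cases (within 0.01 of a read), so the reads behind each column could be compared with the count tables. The column named as WT replicate 1 held the reads of the library labelled TgAD replicate 1 for 100% of the miRNA. The column of WT replicate 2 held those of the library labelled WT replicate 1, the column of TgAD replicate 1 held those of the library labelled TgAD replicate 2, and the column of TgAD replicate 2 matched no count table (at most 4.45% of values equal). No column held the reads of the library labelled WT replicate 2. The library labelled TgAD replicate 1 is therefore called WT in that table, and the results below follow the labels of the count tables. The main results are also given without that library or with the columns of the normalized table taken by name.

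Among all miRNA, miR-99a-5p had the most counted reads in each of the 4 libraries, 327392 and 458630 in WT and 744331 and 1530240 in TgAD. This rank and the shares below hold for reads as counted here. miRNA with more than 1 locus were more often without counted reads (56.6% against 39.8% of those with 1 locus), miR-9-5p among them. The 10 arms together took 19.3% and 21.4% of the miRNA reads of the WT libraries and 31.3% and 36.3% of those of the TgAD libraries. Both TgAD shares lay above both WT shares, by 13.5 percentage points between the means (20.3% ± 1.47 against 33.8% ± 3.55, SD, n = 2 each). With 2 libraries per genotype the exact two-sided permutation test cannot go below p = 0.333, which is the value it gave (0.444 after Benjamini-Hochberg adjustment over the 4 shares compared). By the column names of the normalized table the difference was 14.8 points, and without TgAD replicate 1 it was 16.01.

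**Figure D1:**
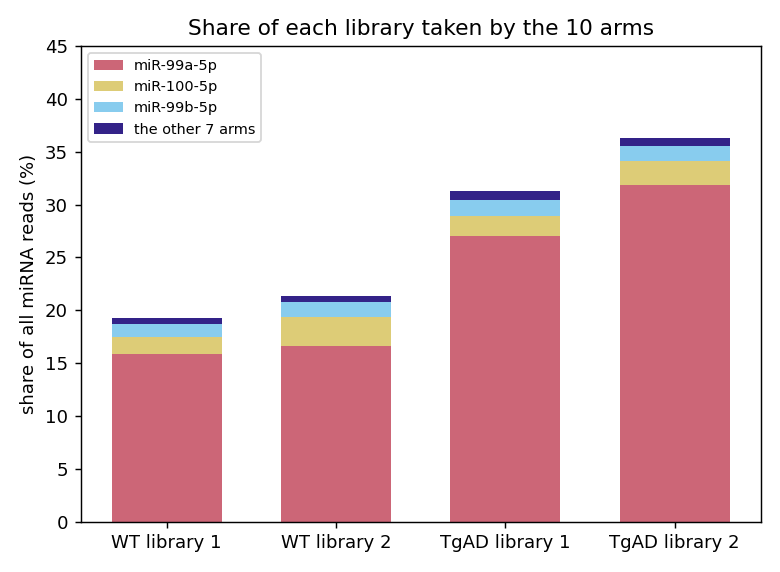
Share of all miRNA reads (%, from 0) taken by the 10 arms in each of the 4 libraries, as stacked bars for miR-99a-5p, miR-100-5p, miR-99b-5p and the other 7 arms together. The height of the bars goes from 19.3% and 21.4% in WT to 31.3% and 36.3% in TgAD, and the step lies in the miR-99a-5p segment.

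The step in the combined share lay in miR-99a-5p. It made up 82.0% and 78.0% of the members' reads in WT and 86.2% and 87.5% in TgAD. The other 9 arms took 3.46% and 4.70% of all reads in WT and 4.33% and 4.52% in TgAD, ranges that overlap (exact permutation p = 1). These shares fall as that of miR-99a-5p rises. With the reads of miR-99a-5p left out of the total, the 9 arms took 4.12% and 5.64% in WT and 5.93% and 6.63% in TgAD, which did not overlap (difference 1.41 points, exact permutation p = 0.333). The 5 miR-125 arms were a small part of every library but also stood apart, at 0.514% and 0.526% in WT and 0.821% and 0.699% in TgAD (0.520% ± 0.00892 against 0.760% ± 0.0865, SD, exact permutation p = 0.333). This difference was gone by the column names of the normalized table, at -0.0255 points.

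Whether the single arms differed was tested with edgeR's quasi-likelihood test on the counts of the 496 miRNA that passed the filter on low counts, among them all 10 members. Levels are given as CPM, reads scaled to a common library size, after TMM normalization, which sets the bulk of miRNA at equal levels between libraries, and a miRNA was called where its log2 fold change (TgAD over WT) was over 0.6 in size with a Benjamini-Hochberg adjusted p under 0.1 over all 496. Of the 10 members, 3 were called higher in TgAD, against 15.7% of all tested miRNA, and none was called lower, against 17.3%. In either direction 33.1% of all tested miRNA were called. No member passed the stringent cutoffs (log2 fold change over 1, adjusted p under 0.01), which 1.41% of the tested miRNA passed in the upward direction. The median log2 fold change was 0.43 over the members and 0.03 over all tested miRNA. Leaving out the library labelled TgAD replicate 1 kept the number of members called higher at 3, while with the reads of the normalized table and its column names 0 of the 480 miRNA tested were called by edgeR, members included (54 had an unadjusted p under 0.05). Between 2 and 4 members were called higher when 1 library was left out, in fits where the lone library of a genotype is assumed to vary like those of the other genotype.

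**Figure D2:**
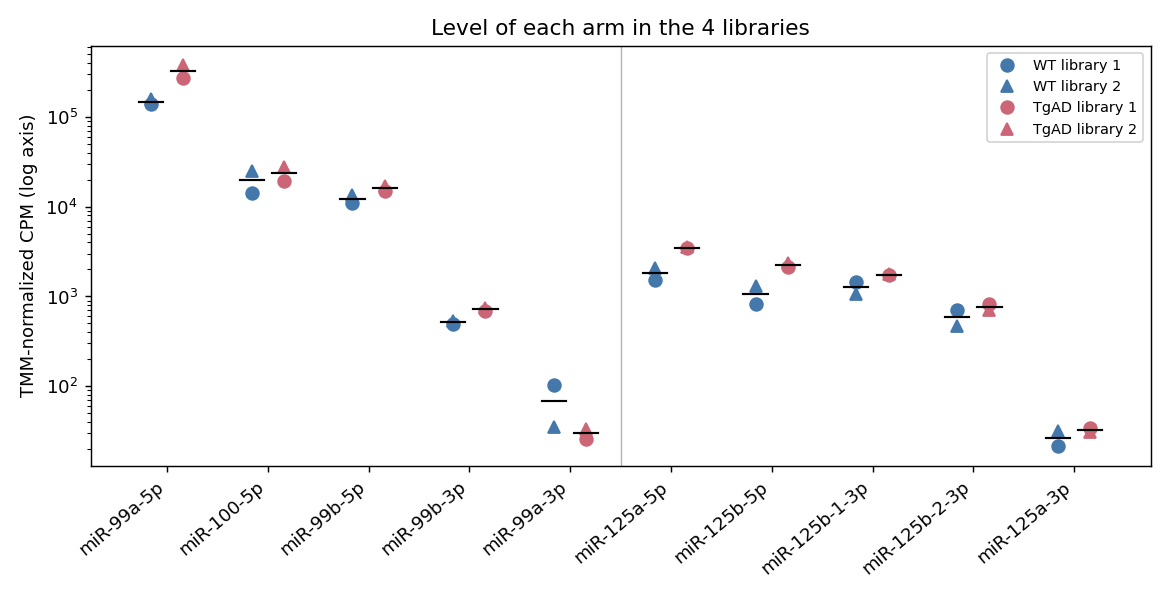
Level of each arm in the 4 libraries, as TMM-normalized CPM on a log axis, with WT in blue, TgAD in red and a black bar at the mean of each genotype. miR-99a-5p lies above all other arms in every library, and in 8 of the 10 arms the WT and TgAD libraries do not overlap, miR-100-5p and miR-125a-3p being the exceptions.

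miR-99a-5p, the most abundant member and the arm with the ACCCGUA seed from the chromosome 16 cluster, had the highest log2 fold change of the called members with all 4 libraries, an order that changed without WT replicate 2 or without TgAD replicate 2, where miR-125b-5p (1.43 and 1.03) was above miR-99a-5p (1.21 and 0.90). It stood at 139344 and 157516 CPM in WT and at 271271 and 380515 CPM in TgAD, both TgAD libraries above both WT libraries. The mean rose from 148430 ± 12850 to 325893 ± 77248 CPM (SD, n = 2 each), 2.20 times, with a log2 fold change of 1.13 (SE 0.270, 95% interval 0.48 to 1.79, adjusted p = 0.0299). Without TgAD replicate 2 the call was lost (adjusted p = 0.106), and without TgAD replicate 1 the log2 fold change was 1.26 (adjusted p = 0.0521). By the column names of the normalized table it was 1.23 and not called (adjusted p = 0.443).

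The other arms with this seed differed less. miR-100-5p, from the chromosome 9 cluster, stood at 14320 and 25312 CPM in WT and at 19576 and 27914 CPM in TgAD. These ranges overlapped, and the log2 fold change of 0.26 (SE 0.334, 95% interval -0.54 to 1.07, adjusted p = 0.603) did not pass. Its value turned on the WT libraries: without WT replicate 1 it was -0.08 (adjusted p = 0.909), and without WT replicate 2 it was 0.72 and passed (adjusted p = 0.0818). miR-99b-5p, from the chromosome 17 cluster, stood at 11081 and 13547 CPM in WT and at 14980 and 17063 CPM in TgAD. Its libraries did not overlap in CPM. Its log2 fold change of 0.38 (SE 0.216, 95% interval -0.14 to 0.90) was not called (adjusted p = 0.263). The values by the column names of the normalized table were 0.79 for miR-100-5p and 0.57 for miR-99b-5p, neither of them called (adjusted p = 0.536 and 0.668).

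Both miR-125 5p arms, which share the lin-4 type seed CCCUGAG, were higher in TgAD. miR-125a-5p stood at 1536 and 2074 CPM in WT and at 3506 and 3522 CPM in TgAD. The WT libraries lay apart by more than the TgAD libraries, and the genotypes did not overlap. The log2 fold change was 0.96 (SE 0.218, 95% interval 0.43 to 1.49, adjusted p = 0.0276), a rise of 1.95 times, and 0.87 without TgAD replicate 1 (adjusted p = 0.0861). miR-125b-5p stood at 823 and 1321 CPM in WT and at 2148 and 2343 CPM in TgAD, again without overlap. Its log2 fold change was 1.07 (SE 0.265, 95% interval 0.43 to 1.71, adjusted p = 0.0336), a rise of 2.09 times, and 1.03 without TgAD replicate 1 (adjusted p = 0.0984). Without WT replicate 1, the library in which it was lowest, it was 0.78 and was not called (adjusted p = 0.104). By the column names of the normalized table the log2 fold changes were 0.60 for miR-125a-5p (adjusted p = 0.671) and 0.29 for miR-125b-5p (adjusted p = 0.893).

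None of the 5 tested 3p arms was called. miR-99a-3p was the sole member with a lower mean in TgAD, at 103 and 35.4 CPM in WT and 25.9 and 33.6 CPM in TgAD. It was the rarest member with miR-125a-3p, with 71 to 241 reads per library, and its high mean in WT came from WT replicate 1. With the 4 libraries its log2 fold change of -1.20 was not called (adjusted p = 0.135), but it lay near the threshold: 8 other fits of the same 4 count tables called it lower, among them DESeq2 (-1.22, adjusted p = 0.0401) and the fit without a filter on low counts (-1.24, adjusted p = 0.0012). Without WT replicate 1 the log2 fold change was -0.23 (adjusted p = 0.816), and without WT replicate 2 it was -1.79 and was called (adjusted p = 0.000376), so that the WT libraries decided it. miR-99b-3p stood at 497 and 532 CPM in WT and at 687 and 749.7 CPM in TgAD, a log2 fold change of 0.48 (SE 0.183, 95% interval 0.04 to 0.92) whose adjusted p of 0.107 lay just outside the threshold.

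The 3 miR-125 3p arms had log2 fold changes between 0.27 and 0.47. miR-125b-1-3p, from chromosome 9, stood at 1447 and 1079 CPM in WT and 1738 and 1764 CPM in TgAD (log2 fold change 0.47, SE 0.213, adjusted p = 0.163). miR-125b-2-3p, from chromosome 16, stood at 698 and 469 CPM in WT and 830.2 and 701 CPM in TgAD, the lower TgAD library lying next to the higher WT library (log2 fold change 0.39, SE 0.248, adjusted p = 0.309). miR-125a-3p, from chromosome 17 and with 50 to 124 reads per library, stood at 21.3 and 31.9 CPM in WT and 33.9 and 30.8 CPM in TgAD and overlapped between genotypes (log2 fold change 0.27, SE 0.296, adjusted p = 0.535). Taken by the column names of the normalized table, the 3p arms stood at log2 fold changes of -1.36 for miR-99a-3p, 0.60 for miR-99b-3p, 0.44 for miR-125b-1-3p, -0.27 for miR-125b-2-3p and 0.34 for miR-125a-3p, and none was called.

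In TMM-normalized CPM the libraries of the genotypes did not overlap for 8 of the 10 members, against 63.1% of all tested miRNA. This count depends on the scaling. As shares of all miRNA reads, miR-99b-5p overlapped, at 1.258% and 1.433% in WT and 1.490% and 1.426% in TgAD. miR-125b-1-3p overlapped as well, at 0.164% and 0.114% in WT and 0.173% and 0.147% in TgAD. So did miR-125b-2-3p, at 0.0792% and 0.0496% in WT and 0.0826% and 0.0586% in TgAD. Both TgAD libraries were the higher in CPM for 7 of the 10 members, against 30.6% of all tested miRNA. Of the 313 tested miRNA without overlap in CPM, 152 were higher in TgAD. A log2 fold change above 0 was found for 9 members, against 52.4% of all tested miRNA.

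**Figure D3:**
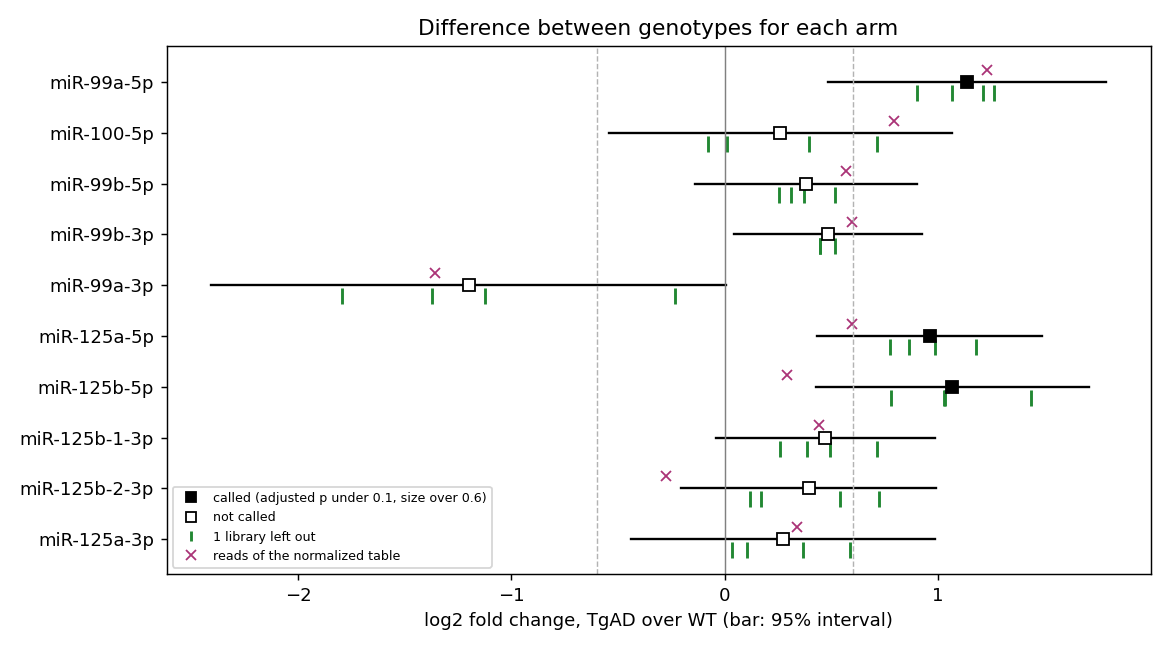
Log2 fold change (TgAD over WT) of each arm with its 95% interval from edgeR, filled where called, with green ticks for the 4 values with 1 library left out and crosses for the reads of the normalized table taken by column name. The filled points are miR-99a-5p, miR-125a-5p and miR-125b-5p, at 1.13, 0.96 and 1.07, and the ticks of miR-99a-3p spread from -1.79 to -0.23.

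The scaling of the libraries bears on these values, since miR-99a-5p alone takes up to 31.8% of a library. With total counts as the library size the median of all tested miRNA moved from 0.03 to -0.23 and the calls from 78 higher and 86 lower to 43 higher and 122 lower. The members' median was then 0.17, which is 0.40 above that of all tested miRNA, a distance that was also 0.40 with TMM. The log2 fold changes of miR-99a-5p, miR-125a-5p and miR-125b-5p became 0.86, 0.71 and 0.81, and each stayed called (adjusted p = 0.0162, 0.0519 and 0.0293). miR-100-5p turned to -0.01, and miR-99a-3p, at -1.50, was called lower (adjusted p = 0.00557). The other 5 members kept a log2 fold change above 0, none of them called.

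The base composition of the miRNA moved with the difference between genotypes. Across the 441 of 496 tested miRNA with a RefSeq sequence (88.9%), the log2 fold change had a Spearman correlation of 0.42 with the GC content of the mature sequence, a description across miRNA of the same 4 libraries, which are not independent replicates. The members hold 47.6% to 63.6% G and C, with all called members at 50.0%. Among the 108 tested miRNA with a GC content from 47.5% to 52.5%, the median log2 fold change was 0.24 and 18.5% were called higher. After each library was corrected for this dependence on GC content the 3 members were still called, at log2 fold changes of 0.90, 0.74 and 0.84 for miR-99a-5p, miR-125a-5p and miR-125b-5p (adjusted p = 0.0378, 0.0501 and 0.0477), and the members' median fell from 0.43 to 0.19.

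The share of the 2 arms of a hairpin was compared next, as the ratio of 5p to 3p reads within a library, which does not depend on the scaling. Of 197 hairpins with enough reads in both arms, 48 (24.4%) were called by limma with a difference over 0.6 on the log2 scale and an adjusted p under 0.1, and 10.2% were called higher in TgAD. The 5p arm led in all 4 of the hairpins that could be tested among the families. In miR-99a it led by 1356 and 4431 reads per 3p read in WT and by 10410 and 11293 in TgAD, so that both TgAD ratios were above both WT ratios. The log2 difference was 2.15 (SE 0.558, 95% interval 0.76 to 3.53, adjusted p = 0.0638), and it was 2.20 without TgAD replicate 1. It rested on WT replicate 1 for its call: without that library the difference was 1.29 with an adjusted p of 0.142, and none of the 186 hairpins tested was called by limma (46 had an unadjusted p under 0.05). The difference was 2.42 by the column names of the normalized table and not called (adjusted p = 0.489), with 0 of 190 hairpins called by limma and 15 with an unadjusted p under 0.05, a fit added after the data were seen.

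The ratio of 5p to 3p reads of miR-125a was 71.5 and 64.6 in WT and 103 and 114 in TgAD, without overlap but not called (log2 difference 0.67, 95% interval -0.01 to 1.35, adjusted p = 0.158). In miR-99b the arms kept nearly one ratio in all libraries, 22.3 and 25.5 in WT and 21.8 and 22.8 in TgAD, and the 95% interval of the log2 difference ran from -0.68 to 0.48 (adjusted p = 0.831). In miR-100, whose 3p arm is a rare relative of the members, the ratios of 1373 and 2498 in WT and 1821 and 2705 in TgAD overlapped (log2 difference 0.26, 95% interval -0.73 to 1.25, adjusted p = 0.703).

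Cluster mates were set against each other in the same way, since hairpins of a cluster can be cut from a common primary transcript. Of the 10 pairs compared, none can fall below p = 0.333 in the exact two-sided permutation test over the 4 libraries, and all adjusted p were 0.833 or 1. On chromosome 16, there were 169 and 119 reads of miR-99a-5p per read of miR-125b-5p in WT and 126 and 162 in TgAD, which overlapped, with a log2 difference of 0.01 between the genotypes (0.89 by the column names of the normalized table). Against miR-125b-2-3p, the arm that comes from this cluster alone, miR-99a-5p stood at 199.6 and 336 in WT and 327 and 543 in TgAD, overlapping as well (log2 difference 0.70, exact permutation p = 0.667). That difference was 0.33 without WT replicate 1, 0.34 without TgAD replicate 2, 1.08 without WT replicate 2, 1.07 without TgAD replicate 1 and 1.55 by the column names. miR-99a-3p per read of miR-125b-2-3p did not overlap, at 0.147 and 0.0758 in WT and 0.0314 and 0.0480 in TgAD (log2 difference -1.44, exact permutation p = 0.333, and -0.87 by the column names).

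On chromosome 17, where the hairpins lie closest, there were 7.21 and 6.53 reads of miR-99b-5p per read of miR-125a-5p in WT and 4.27 and 4.84 in TgAD. The genotypes did not overlap, and the log2 ratio was lower in TgAD by a difference of -0.59 (2.78 ± 0.10 against 2.19 ± 0.13, SD, n = 2 each, exact permutation p = 0.333). The difference was -0.14 by the column names of the normalized table (exact permutation p = 1), and without TgAD replicate 1 it was -0.50. The 3p arms of the same hairpins, miR-99b-3p per read of miR-125a-3p, overlapped at 23.1 and 16.6 in WT and 20.2 and 24.2 in TgAD (log2 difference 0.18, and 0.22 by the column names).

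On chromosome 9, miR-100-5p per read of miR-125b-5p was 17.4 and 19.2 in WT and 9.11 and 11.9 in TgAD, without overlap (log2 difference -0.81, exact permutation p = 0.333). miR-100-5p per read of miR-125b-1-3p, the arm of this cluster alone, overlapped at 9.90 and 23.5 in WT and 11.3 and 15.8 in TgAD. By the column names of the normalized table the log2 difference for miR-100-5p to miR-125b-5p turned to 0.42, and that for miR-100-5p to miR-125b-1-3p, -0.19 by the labels, to 0.39.

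The 3p arms of miR-125b come from 1 locus each and were compared without the shared 5p arm. Whether their ratio follows the output of the 2 loci was not tested. There were 2.07 and 2.30 reads of miR-125b-1-3p per read of miR-125b-2-3p in WT and 2.09 and 2.52 in TgAD, so the chromosome 9 arm was the more abundant in all 4 libraries and the genotypes overlapped (log2 difference 0.07, exact permutation p = 0.667, and 0.70 by the column names). miR-125b-5p per read of miR-125b-1-3p was 0.569 and 1.22 in WT and 1.24 and 1.33 in TgAD, with WT replicate 1 apart from the other libraries, and the log2 difference of 0.62 was 0.07 without that library, 1.17 without WT replicate 2 and -0.04 by the column names. The same library was lowest for miR-125b-5p per read of miR-125b-2-3p, at 1.18 and 2.82 in WT and 2.59 and 3.34 in TgAD, and the log2 difference of 0.69 was 0.06 without it, 1.32 without WT replicate 2 and 0.66 by the column names. miRNA whose mature sequence lies at more than 1 locus were more often without reads in these tables, 56.6% of 53 against 39.8% of 1622 with 1 locus, and the sources used here do not say how a read with several positions was counted.

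**Figure D4:**
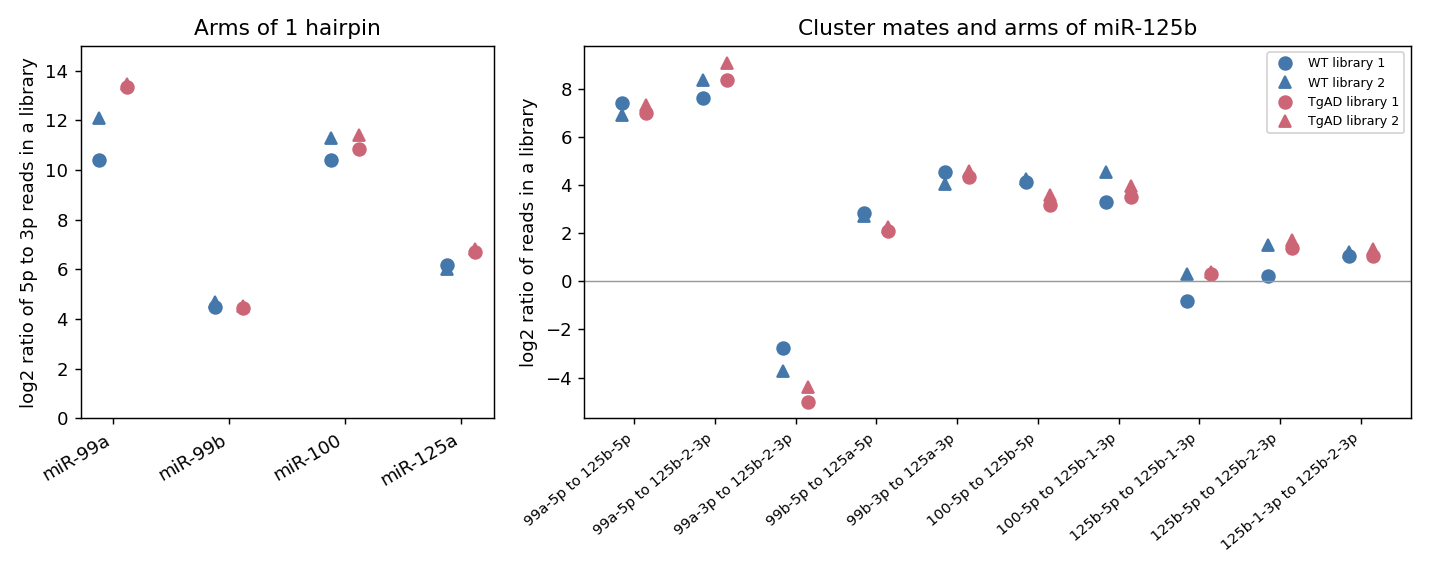
Log2 ratio of reads within each library, on the left for the 5p over the 3p arm of 4 hairpins and on the right for the 10 pairs of cluster mates and miR-125b arms, with WT in blue and TgAD in red. On the left, the TgAD points of miR-99a and miR-125a lie above the WT points. On the right, miR-99a-3p to miR-125b-2-3p, miR-99b-5p to miR-125a-5p and miR-100-5p to miR-125b-5p lie lower in TgAD without overlap. miR-125b-5p to miR-125b-1-3p lies higher in TgAD without overlap, and the other pairs overlap.

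The neighbours and relatives of the families were taken as 10 arms: the let-7 arms of the 3 clusters, miR-100-3p, miR-10a-5p, miR-10b-5p and miR-351-5p. All 10 were tested and none was called, and their median log2 fold change was 0.13. The let-7 miRNA promote differentiation and restrain growth genes, and their 5p arms lie between the members in each cluster. let-7c-5p, next to miR-99a, stood at 941 and 645 CPM in WT and 741 and 936 CPM in TgAD (log2 fold change 0.08, adjusted p = 0.843). Its name carries no locus number, so its reads were not assigned to this cluster alone. let-7c-1-3p, the arm named for the hairpin of this cluster, stood at 129 and 106 CPM in WT and 97.7 and 166 CPM in TgAD (log2 fold change 0.18, adjusted p = 0.704). let-7e-5p, between miR-99b and miR-125a, stood at 5566 and 5921 CPM in WT and at 5219 and 5017 CPM in TgAD (log2 fold change -0.17, adjusted p = 0.551). miR-351-5p, which has the miR-125 5p seed, stood at 136 and 140 CPM in WT and at 136 and 209.6 CPM in TgAD (log2 fold change 0.32, adjusted p = 0.407). None of these was called, although cluster mates or seed relatives among the members were. The difference between a member and its relative was not tested.

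The miRNA outside the 10 members whose pattern over the 4 libraries was most like that of the called members were found by the Euclidean distance between log2 CPM values centred on each miRNA's mean. For miR-99a-5p these were miR-361-3p (distance 0.081), miR-151-3p (0.150) and miR-674-3p (0.225). miR-361-3p stood at 1376 and 1668 CPM in WT and at 2824 and 3819 CPM in TgAD. For miR-125a-5p they were miR-499-5p (0.122), miR-377-5p (0.154) and miR-329-5p (0.170), and for miR-125b-5p miR-330-3p (0.228), miR-329-5p (0.272) and miR-377-5p (0.277). miR-125a-5p and miR-125b-5p lay at 0.233 from each other, and miR-99a-5p at 0.410 and 0.440 from them. These distances rest on 4 libraries and are a description.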

How the data were processed

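Small RNA was sequenced from 2 WT and 2 TgAD cultures of cortical neurons. The authors deposited raw counts for each library. They had removed adapters from reads of 50 bp, aligned these to GRCm38 by Bowtie2 allowing no mismatch, and counted them per mature miRNA by HTSeq on miRBase annotation. The authors also deposited 1 table of normalized values, a signal of counts divided by size factors, from which whole reads were recovered (100% of values). It was used for a check of labels and as an alternative. No column was without a sample.

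Counts were fitted with edgeR 4.0.16 in R 4.3.3 (TMM, filterByExpr, genotype as the only factor), and ratios of 5p to 3p reads with limma 3.58.1 (0.5 added to each count, at least 10 reads in each arm). The exact permutation tests were two-sided. Benjamini-Hochberg adjustment ran over all features of a fit. Alternatives were RLE, total counts, total counts without miR-99a-5p, no filter, at least 10 reads in every library, DESeq2 1.42.0, the robust fit, GC correction (local regression, span 0.75), the replicate block, other pseudocounts and leaving out each library. Named were all members, 10 fixed relatives and the 3 miRNA nearest to each of miR-99a-5p, miR-125a-5p and miR-125b-5p. The members and lists were chosen with earlier results of these data known. The p-values of the edgeR, limma and DESeq2 fits rest on the spread between these cultures, estimated with information shared over all features of a fit. In fits without 1 library, the lone library of a genotype adds no spread of its own. Reads without molecular identifiers are not independent molecules. Depth was 2070204 to 4811010 reads. The procedure was tested on simulated data. Python 3.11.15, pandas 2.3.3, SciPy 1.17.1 and matplotlib 3.10.9 were used.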

Additional observations from a re-analysis of the deposited data

Results flagged for a closer look

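The column of the normalized table named as TgAD replicate 2, whose reads matched no count table and entered only the values given by the column names of that table, held 1926952 reads and had a higher share than both WT libraries for 5 members. The values were 39.7% of the reads for miR-99a-5p, 1.48% for miR-99b-5p, 0.0711% for miR-99b-3p, 0.280% for miR-125a-5p and 0.175% for miR-125b-1-3p. In the same column 3 members lay below both WT libraries: miR-125b-5p at 0.0882% (0.0934% and 0.140% in WT), miR-125b-2-3p at 0.0387% (0.0792% and 0.0496% in WT) and miR-99a-3p at 0.00109% or 21 reads (0.0116% and 0.00374% in WT). The other 2, miR-100-5p at 2.11% and miR-125a-3p at 0.00270%, lay between the WT libraries. The same comparison was not made over all 674 miRNA of the column, so these numbers of members have no background and are a description. With 2 libraries per genotype no group was large enough to be searched for single libraries that lie apart.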

How the results depend on the processing

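miR-99a-5p, miR-125a-5p and miR-125b-5p stayed called higher in each of the 8 alternatives that kept the 4 count tables and genotype as the only factor, with log2 fold changes of 0.86 to 1.14, 0.71 to 0.96 and 0.81 to 1.07 and adjusted p up to 0.0382, 0.0519 and 0.0477. Of 346 alternative values, which include counts of calls, 17 changed sign. Among them were 3 of 150 log2 fold changes of the members, 10 of 60 cluster mate ratios and 2 of 22 family shares. For the ratios and shares only the direction can be compared, since the exact permutation test cannot go below p = 0.333.

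The largest change came from the reads of the normalized table taken by column name, with 0 of all miRNA, 0 of all arm ratios and 0 members called in either test. There miR-125b-2-3p turned to -0.27, and the log2 ratios of miR-100-5p to miR-125b-5p, miR-100-5p to miR-125b-1-3p and miR-125b-5p to miR-125b-1-3p turned to 0.42, 0.39 and -0.037. The share of the miR-125 arms turned to -0.0255 points. There, 3 of the 4 columns hold the reads of another library than the one they are named for.

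With 1 member, miR-99a-3p, as the lower call, the count of members called lower was 1 instead of 0 under total counts, total counts without miR-99a-5p, no filter, at least 10 reads in every library, DESeq2, GC correction and the replicate block with or without GC correction. The cause was not tested. The stringent calls, 0 of the members in the report, were 1 under total counts, 3 without a filter and 2 each under DESeq2 and the replicate block. miR-100-5p turned to -0.0075 under total counts.

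Leaving out 1 library moved the called members from 2 to 4 higher and 0 to 1 lower, with 0 to 4 stringent calls, and the called arm ratios from 0 to 44 of all hairpins and 0 to 1 of the members. Log2 fold changes of miR-100-5p ran from -0.078 to 0.72 and the log2 differences of its 5p to 3p ratio from -0.17 to 0.69. The log2 ratios ran from -0.24 to 0.26 for miR-99a-5p to miR-125b-5p, -0.065 to 0.42 for miR-99b-3p to miR-125a-3p, -0.81 to 0.43 for miR-100-5p to miR-125b-1-3p and -0.061 to 0.20 for miR-125b-1-3p to miR-125b-2-3p. The share of the 9 arms without miR-99a-5p ran from -0.27 to 0.96 points.

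With the replicate number as a block, 188 of 496 miRNA were called in place of 164, with 3 members higher. Same-numbered libraries deviated together with a correlation of 0.22, but 2 pairs of separate embryos do not make the numbers a pairing. With the block and the GC correction miR-99a-5p, at 0.90, was not called (adjusted p = 0.1004). Depth limits miR-99a-3p and miR-125a-3p, with 50 to 241 reads per library.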
